A study of Homo sapiens with 4 samples.

Results

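The clustered histone genes were examined in peak lists from chromatin immunoprecipitation followed by sequencing (ChIP-seq) in MDA-MB-231, a human cell line from a triple-negative breast tumour. They were the RefSeq protein-coding genes named H1-, H2AC, H2BC, H3C or H4C with a number that lie on chromosome 6 (25 to 29 Mb) or chromosome 1 (120 to 151 Mb and 228 to 229 Mb), in all 68 of 19974 genes. Cells of a subclone, labelled wild type and left untreated, were precipitated with an Abcam antibody to the HA tag, and the labels name PD-L1 as the target. There were 2 ChIP samples, biological replicates according to the design text, and 2 input samples, all of the same genotype and treatment. The sources used here do not give how the tagged protein was brought into the cells, nor whether the subclone is a single clone. No mock precipitation was analysed here, so chromatin recovered without the target cannot be told apart from binding. The lists hold no expression values, so markers could not check the cell line.

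Histones package DNA. H2A, H2B, H3 and H4 form the core of the nucleosome, and H1, the linker histone, binds the DNA where it enters and leaves that core. Most of their supply comes from many short, nearly identical genes without introns, grouped in clusters and transcribed when DNA is replicated, which dividing tumour cells need in every cycle. NPAT drives their transcription in a nuclear body at the clusters, and SLBP binds the stem-loop that ends their mRNAs in place of a poly(A) tail.

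Histone genes less than 200 kb apart were taken as 1 cluster, which gave 6 clusters. The largest held 32 genes on 6p22 (hg38 chr6:26017032-26285534), followed by 16 genes at chr6:27807479-27893891, 11 genes on 1q21 (chr1:149782689-149887965) and 5 genes at chr6:27132316-27147562. There were 2 genes each at chr6:25726063-25727345 (H2AC1 and H2BC1, variants known from the testis) and on 1q42 (chr1:228457364-228458558, H2AC25 and H2BC26). By type there were 6 H1, 17 H2A, 18 H2B, 13 H3 and 14 H4 genes. A gene counted as carrying a peak when a peak of the authors' lists overlapped its span, or the 1 kb on either side, by at least 1 bp. Overlapping peaks of both lists were joined, and a joined stretch with peaks from each list was a shared region. The lists held 166548 peaks of replicate 1 and 93591 of replicate 2 on chromosomes 1 to 22 and X, and gave 45771 shared regions.

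The DNA just before the starts of these genes is shown first for H1, the type that most often carried a peak in replicate 1. Each line gives the 250 bases before the start from RefSeq (GRCh38.p14, the build of hg38), 5′ to 3′ on the gene's strand. Capitals mark, on either strand, TATAAA (the TATA box), CCAAT (the CCAAT box), ATTTGCAT (the octamer), GGTCC (part of an element known from H4 genes) and AAACACA (known as the H1 box).
H1-1, chr6:26017788-26018037, minus strand: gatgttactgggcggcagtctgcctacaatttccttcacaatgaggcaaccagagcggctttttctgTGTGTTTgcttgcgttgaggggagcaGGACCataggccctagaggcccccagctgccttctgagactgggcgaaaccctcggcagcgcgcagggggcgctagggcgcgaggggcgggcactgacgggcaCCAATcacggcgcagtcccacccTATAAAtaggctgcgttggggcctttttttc
H1-2, chr6:26056471-26056720, minus strand: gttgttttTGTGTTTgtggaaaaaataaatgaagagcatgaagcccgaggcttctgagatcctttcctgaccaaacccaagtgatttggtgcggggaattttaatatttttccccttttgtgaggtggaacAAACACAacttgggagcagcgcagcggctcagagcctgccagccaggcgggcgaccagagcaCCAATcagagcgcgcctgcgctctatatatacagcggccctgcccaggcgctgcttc
H1-3, chr6:26234988-26235237, minus strand: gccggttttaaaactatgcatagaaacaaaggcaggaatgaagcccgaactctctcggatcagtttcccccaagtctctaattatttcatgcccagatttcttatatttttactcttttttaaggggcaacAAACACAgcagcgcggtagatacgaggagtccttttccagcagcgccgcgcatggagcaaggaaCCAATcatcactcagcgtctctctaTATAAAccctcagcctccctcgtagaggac
H1-4, chr6:26156079-26156328, plus strand: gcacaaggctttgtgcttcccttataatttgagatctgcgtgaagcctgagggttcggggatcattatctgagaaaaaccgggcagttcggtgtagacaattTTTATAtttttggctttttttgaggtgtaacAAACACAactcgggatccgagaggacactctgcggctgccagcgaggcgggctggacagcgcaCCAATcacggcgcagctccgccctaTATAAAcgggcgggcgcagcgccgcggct
H1-5, chr6:27867589-27867838, minus strand: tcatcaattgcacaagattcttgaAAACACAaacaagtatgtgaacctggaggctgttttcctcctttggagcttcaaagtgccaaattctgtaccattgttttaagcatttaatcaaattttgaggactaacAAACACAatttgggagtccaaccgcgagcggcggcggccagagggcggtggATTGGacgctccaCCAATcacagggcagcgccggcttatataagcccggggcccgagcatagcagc
H1-6, chr6:26108136-26108385, minus strand: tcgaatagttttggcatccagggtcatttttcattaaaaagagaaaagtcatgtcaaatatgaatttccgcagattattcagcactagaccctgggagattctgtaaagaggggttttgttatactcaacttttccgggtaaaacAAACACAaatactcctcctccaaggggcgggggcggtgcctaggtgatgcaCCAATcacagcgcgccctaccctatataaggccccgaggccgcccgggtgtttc
Peaks of replicate 1 covered all 250 of these bases at H1-2, 247 at H1-4, 59 at H1-3, 38 at H1-1 and none at H1-5 and H1-6. Replicate 2 covered 93 of them at H1-5 and none at the other H1 genes. AAACACA stood before 6 of 6 H1 genes and before none of the other histone genes in the promoter table, against 5.05% of all protein-coding genes. It was added to the motifs with the H1 peaks known. H1-6, which encodes a testis variant, holds it too and carried no peak.

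The core histone genes whose starts or flanks matter below are shown in the same way: H2AC1 and H4C8, whose promoters lay under a peak of replicate 1, H2AC6 and H3C4, which met shared regions, and H4C14, whose sequence before the start is repeated at H4C15.
H2AC1, chr6:25726563-25726812, minus strand: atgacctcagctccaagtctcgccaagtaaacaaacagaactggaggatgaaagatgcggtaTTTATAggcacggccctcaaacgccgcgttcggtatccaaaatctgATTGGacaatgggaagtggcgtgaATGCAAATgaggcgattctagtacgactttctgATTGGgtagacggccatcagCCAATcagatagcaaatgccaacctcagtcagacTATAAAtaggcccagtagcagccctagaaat
H2AC6, chr6:26123922-26124171, plus strand: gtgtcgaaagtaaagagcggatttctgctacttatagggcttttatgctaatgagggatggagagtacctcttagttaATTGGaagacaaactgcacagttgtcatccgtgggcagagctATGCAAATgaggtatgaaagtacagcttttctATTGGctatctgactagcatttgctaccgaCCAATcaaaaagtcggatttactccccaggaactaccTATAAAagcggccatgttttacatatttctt
H3C4, chr6:26197287-26197536, minus strand: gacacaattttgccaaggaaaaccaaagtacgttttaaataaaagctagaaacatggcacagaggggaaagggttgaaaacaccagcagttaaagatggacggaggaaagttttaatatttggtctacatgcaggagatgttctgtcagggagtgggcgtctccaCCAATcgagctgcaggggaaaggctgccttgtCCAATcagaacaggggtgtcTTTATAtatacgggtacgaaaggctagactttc
H4C8, chr6:26285535-26285784, minus strand: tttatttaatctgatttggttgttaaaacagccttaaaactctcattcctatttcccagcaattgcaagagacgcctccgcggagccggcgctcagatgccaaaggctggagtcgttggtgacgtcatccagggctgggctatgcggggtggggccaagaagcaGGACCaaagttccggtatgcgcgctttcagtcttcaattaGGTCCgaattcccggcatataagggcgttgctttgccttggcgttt
H4C14, chr1:149832407-149832656, plus strand: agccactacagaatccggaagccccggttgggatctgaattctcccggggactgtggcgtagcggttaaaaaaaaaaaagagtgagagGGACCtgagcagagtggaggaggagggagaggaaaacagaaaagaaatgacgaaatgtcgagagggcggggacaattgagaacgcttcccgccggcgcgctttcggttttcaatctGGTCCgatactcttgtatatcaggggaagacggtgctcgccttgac
For H3C4 the start nearest the peaks is given, and its other start coincides with that of H2AC7. Motifs differed by type, and 63 of the 68 genes were in the promoter table. CCAAT stood before all H1, H2A, H2B and H3 genes of the table and before 3 of 12 H4 genes (40.2% of all protein-coding genes). ATTTGCAT stood before 14 of 18 H2B and 11 of 16 H2A genes, 1 of 11 H3 genes and no H1 or H4 gene (2.16% of all). The H3 gene was H3C4, counted through the start it shares with H2AC7, and its start shown above has no octamer. GGTCC stood before 11 of 12 H4 genes, 4 of 18 H2B, 3 of 11 H3, 1 of 16 H2A and 1 of 6 H1 genes (52.3% of all). TATAAA stood before 42 of 63 histone genes (11.9% of all). The motifs were searched on both strands, and TATAAA can overlap its own reverse complement, as it does between H2BC11 and H2AC11. Genes that start head to head share bases before their starts, so the same match can count for both. The octamer between H2BC4 and H2AC6 is such a match. These counts are therefore not independent between such genes. Split by a peak in replicate 1, the octamer stood before 9 of 22 genes with one and 17 of 41 without. CCAAT stood before 21 of 22 and 33 of 41, GGTCC before 3 of 22 and 17 of 41, and AAACACA before 5 of 22 and 1 of 41. Beside the last counts, 2 of 14 H4 genes and 5 of 6 H1 genes had a peak in replicate 1. H4C1, an H4 gene with a peak, is not in the promoter table and so not in the split. For TATAAA, 16 of the 22 genes in the table that carried a peak in replicate 1 and 26 of the 41 that did not had a match. GC content of the 300 promoter bases (250 before and 50 after the start) had a median of 43.0% with a peak and 43.2% without one, against 62.3% over all protein-coding promoters.

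Few clustered histone genes carried a peak, and fewer did so in both replicates. In replicate 1, 23 of 68 (33.8%) had a peak in the window, against 79.2% of all protein-coding genes and 48.3% of the 1905 genes with a span under 3 kb. In replicate 2 it was 8 of 68 (11.8%), against 64.1% of all genes and 27.4% of those under 3 kb. A shared region met 6 of 68 (8.82%), against 50.9% and 24.2%. The histone shares were thus below both backgrounds in each list, and the genes under 3 kb are the closer of these, since a longer window meets more peaks. They are not matched in length. Median spans by histone type were 399 bp (H4) to 766 bp (H1), while H2BC18, H4C15, H2BC5, H2BC4, H2BC12 and H3C6 have spans over 3 kb. The part of span length in the lower shares was not tested. Members are not replicates and neighbours share peaks, so these shares are given without a test. The counts moved with the settings: windows of 5 kb gave 38 genes in replicate 1, 13 in replicate 2 and 10 with a shared region, and a −log10 q of 2 or more gave 11, 5 and 1. With equal numbers of peaks in the lists there were 12 in replicate 1 and 3 with a shared region, and a reciprocal overlap of 50% left 2 with one. The background shares were not counted at these settings, so whether the histone shares stay below them there was not tested.

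**Figure D1:**
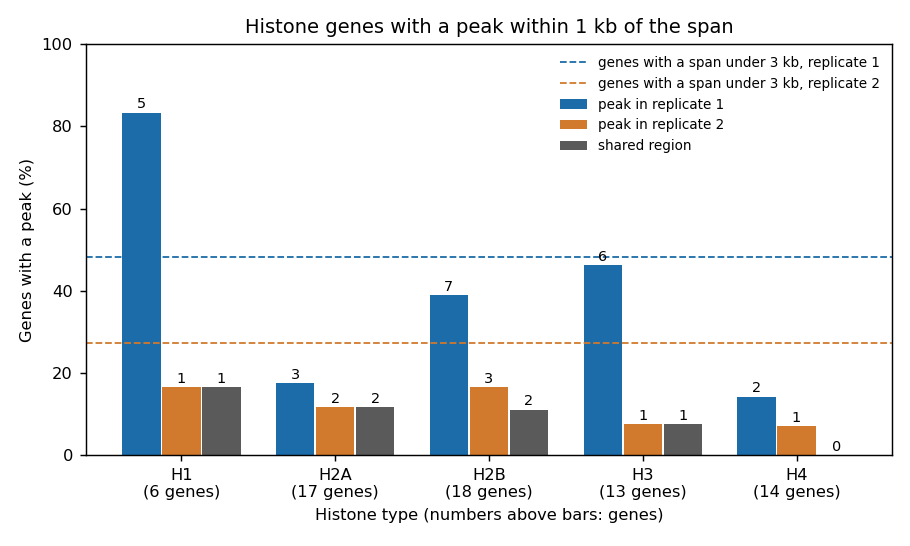
Share of histone genes with a peak of replicate 1, a peak of replicate 2 or a shared region within 1 kb of the span, by histone type, with the number of genes above each bar; dashed lines give that share over all genes with a span under 3 kb (48.3% in replicate 1, 27.4% in replicate 2). H1 stands highest in replicate 1 with 5 of 6 genes, and H4 lowest with 2 of 14. The 1q21 cluster, which had no peak, holds genes of every type but H1.

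Peaks of replicate 1 lay over the gene itself for 17 histone genes (43.4% of genes under 3 kb and 77.1% of all genes had one) and only in the flanks for 6. In replicate 2 they lay over the gene for 5 (18.4% of genes under 3 kb and 60.4% of all) and only in the flanks for 3. A peak of each replicate stood in 5 windows (23.5% of genes under 3 kb and 61.2% of all). Those 5 were 21.7% of the histone genes of replicate 1 and 62.5% of those of replicate 2. For genes under 3 kb the same shares were 48.5% and 85.6%. So 18 histone genes had a peak in replicate 1 only and 3 in replicate 2 only. The nearest peak that counted in replicate 1 lay up to 906 bp from a gene (H2AC6), and the nearest that did not count lay 1117 bp from H2AC16.

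The genes with a shared region were H2BC4, H2AC6, H2BC5, H3C4, H1-5 and H2AC16, and they rested on 4 regions. H2BC4 and H2AC6, a head-to-head pair of an H2B and an H2A gene, met the region chr6:26122592-26123426. The fold enrichment the authors' caller gave there was 3.73 in replicate 1 and 2.39 in replicate 2. The region lay within the H2BC4 span, and its peaks ended 906 bp and 746 bp short of H2AC6. Between the starts of the pair, shown above with the octamer, there was no peak in either list.

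H3C4 met the region chr6:26195425-26197502, with a fold of 3.72 in replicate 1 and 2.62 in replicate 2. The peak of replicate 1 lay 252 bp outside the gene span and that of replicate 2 reached 719 bp into it, so the peaks overlapped only at their ends. The pseudogene H1-12P lies inside the peak of replicate 1. In replicate 2 the peak covered 216 of the 250 bases before the start of H3C4 shown above. H2BC5 met the region chr6:26165295-26166510, with a fold of 2.88 in replicate 1 and 2.29 in replicate 2. Its annotated span of 13229 bp reaches far beyond the 300 promoter bases, and this region lay within that span. Its window also met the replicate 1 peak of H1-4.

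H1-5, a linker histone gene of the cluster of 16 genes, was the member most fully covered in replicate 2. The peak of replicate 2 at chr6:27866174-27867681 had a fold of 2.53 and a −log10 q of 2.41 and covered all 797 bp of the gene and 53.9% of its window. The peak of replicate 1 lay inside it, at chr6:27866915-27867405, with a fold of 3.11 and a −log10 q of 1.67. It covered 491 bp of the gene. H2AC16, its neighbour, counted through the same region, with a peak of replicate 2 at 376 bp and none of replicate 1 in its window.

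The H1 genes were the type with the most cover. In replicate 1, 5 of 6 had a peak, against 48.3% of genes under 3 kb. H1 windows were covered over 24.4% of their length, against 22.4% for windows of all genes under 3 kb. In replicate 2, 1 of 6 had a peak, against 27.4% of genes under 3 kb, and the cover was 9.10%, against 6.48%. So H1 windows had a cover close to that of other short genes in replicate 1, and in replicate 2 their cover came from H1-5 alone. The fold in replicate 1 was 3.53 at H1-4, 3.29 at H1-3, 3.22 at H1-1, 3.11 at H1-5 and 3.05 at H1-2. The peaks at H1-4 (1313 bp) and H1-3 (1357 bp) each spanned the whole gene, while that at H1-1 was 216 bp wide. Windows were covered over 48.9% at H1-3, 47.1% at H1-4, 24.6% at H1-2, 17.6% at H1-5 and 7.84% at H1-1. H1-6 had no peak in either list. The types are spread unevenly over the clusters. The 1q21 cluster, which had no peak, holds 4 H2A, 2 H2B, 3 H3 and 2 H4 genes but no H1 gene. The part of this in the differences between types was not tested.

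H2A and H2B genes mostly stand in head-to-head pairs that share the DNA between their starts. There were 11 such pairs in the promoter table, with starts 194 to 248 bp apart. A peak of replicate 1 met the DNA between the starts at 2 of them, H2AC1 with H2BC1 and H2BC11 with H2AC11, and a peak of replicate 2 at none. Within 1 kb of the starts, 3 pairs had a peak in replicate 1 and 1 in replicate 2, the pair H2BC4 with H2AC6 in each list. Over all genes of these types, 3 of 17 H2A genes (17.6%) had a peak in replicate 1 and 2 of 17 (11.8%) in replicate 2. For H2B the counts were 7 of 18 (38.9%) and 3 of 18 (16.7%). Of genes under 3 kb, 48.3% had a peak in replicate 1 and 27.4% in replicate 2. Windows of H2A and H2B genes were covered over 3.02% and 3.81% in replicate 1, and over 2.17% and 1.65% in replicate 2. Those of genes under 3 kb stood at 22.4% and 6.48%. The window of H2BC18 on 1q21, without a peak, made up 31682 of the 106754 bp of H2B windows.

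The pair H2AC1 and H2BC1 shared a peak at chr6:25725832-25726785 with a fold of 2.96 in replicate 1, below the list median of 3.14. It covered all 500 bp of H2AC1 and 9 bp of H2BC1, and replicate 2 had none. H2BC26 on 1q42 had a peak at chr1:228459283-228459628 in replicate 1, 725 bp from the gene, with a fold of 3.61. Its partner H2AC25 had none, and replicate 2 had no peak at either. H2BC11 and H2AC11 shared a narrow peak of replicate 1, 176 bp wide, with a fold of 2.98. In the same cluster replicate 2 had 1 peak of 208 bp at chr6:27139850-27140057, with a fold of 2.62. It counted for H4C9, at 172 bp, and for H2BC12, whose span encloses H4C9. The lists thus placed their only peak of that cluster at different genes, and H2AC12, its remaining gene, had none. H2BC3 (fold 3.41, 139 bp from the gene) and H2BC17 (3.06) had a peak in replicate 1 only.

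H3 genes had a peak in 6 of 13 cases (46.2%) in replicate 1 and in 1 of 13 (7.69%), H3C4, in replicate 2. In replicate 1 this was near the 48.3% of genes under 3 kb, and in replicate 2 it was below their 27.4%. H3C6 had a peak of 189 bp with a fold of 3.65 and a −log10 q of 2.90 in replicate 1, which only peaks at H2BC4 and H2AC6 matched among the members. H3C1 had 3 peaks in its window in replicate 1, of which 1 of 188 bp lay over the gene, with a fold of 2.93. H3C3 had a peak with a fold of 2.95 at the gene, and the peak of H2BC3 (3.41) also counted for it, at 949 bp. H3C8 (3.06) and H3C10 (3.12) completed the type. H3 windows were covered over 8.70% in replicate 1 and 2.76% in replicate 2.

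H4 genes had the fewest peaks. In replicate 1 they were 2 of 14 (14.3%, against 48.3% of genes under 3 kb), H4C1 and H4C8. A peak with a fold of 2.87 covered 393 bp of the 402 bp of H4C1, and it also counted for H3C1. In replicate 2 there was 1 of 14 (7.14%, against 27.4% of genes under 3 kb), H4C9. None met a shared region. The peak at H4C8 was the widest at any histone gene (1945 bp), covered the whole gene and 80.7% of its window, the largest cover of any member, and had the lowest fold (2.81) of the 22 distinct peaks. H4 windows were covered over 5.05% in replicate 1 and 0.417% in replicate 2. In replicate 1, 1945 of the 2519 covered bp lay at H4C8. The window of H4C15 on 1q21, without a peak, made up 18753 of the 49915 bp of H4 windows.

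**Figure D2:**
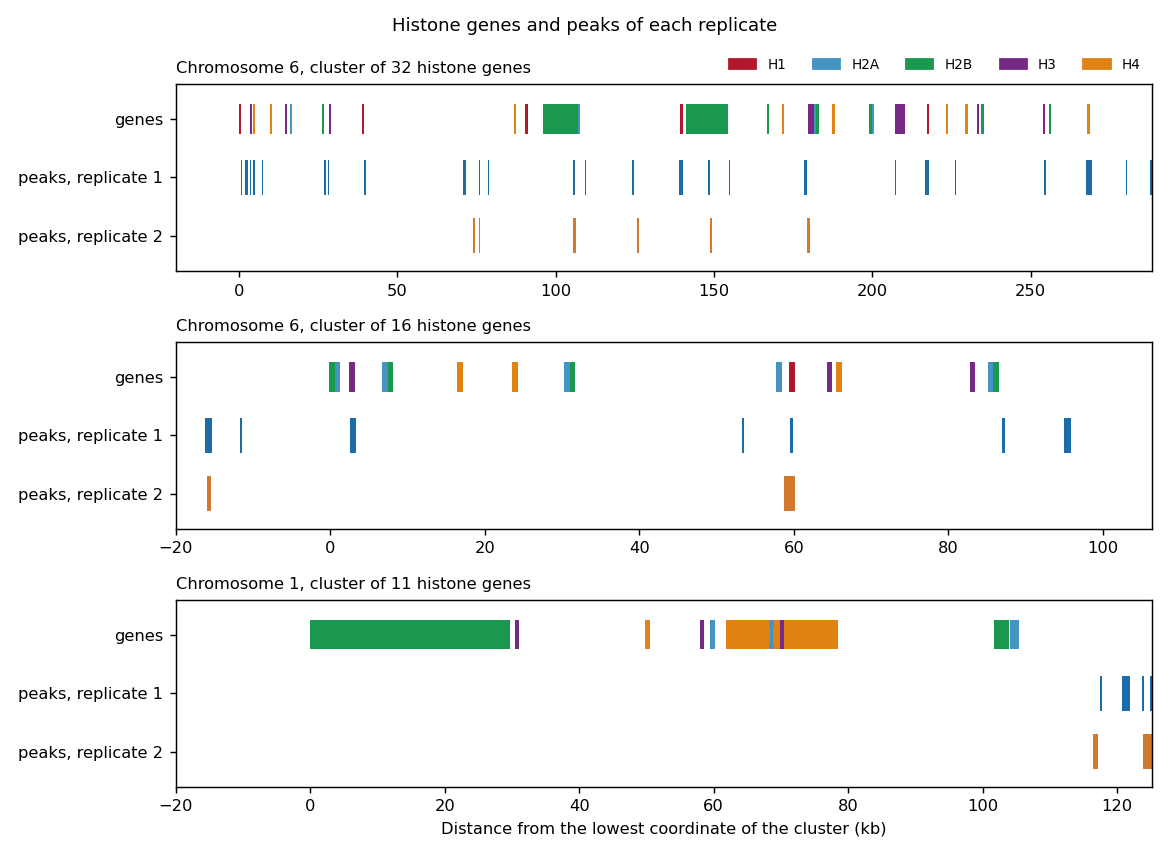
Histone genes, coloured by type, and peaks of replicates 1 and 2 along the 3 largest clusters, against distance from the lowest coordinate of each cluster in kb; genes are drawn at least 700 bp and peaks at least 300 bp wide so that they can be seen, and 20 kb on each side are shown for context. The cluster of 32 genes carries 23 and 6 peaks in replicates 1 and 2 between its outer genes' windows, the cluster of 16 genes 4 and 1, and the 1q21 cluster none.

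Within the clusters, histone windows were covered more than the sequence between them. Over all clusters, peaks covered 6.23% of the windows and 1.502% of the sequence between in replicate 1, a ratio of 4.15. In replicate 2 they covered 2.05% and 0.544%, a ratio of 3.78. In the cluster of 32 genes the shares were 10.6% and 2.29% in replicate 1 (ratio 4.62), and 2.72% and 0.870% in replicate 2 (ratio 3.12). In the cluster of 16 genes they were 5.32% and 0.346% in replicate 1, and 5.06% and none in replicate 2. The ratio of replicate 1 was 1.97 for spans alone, 1.92 with windows of 5 kb and 13.6 without the cluster of 32 genes. The 13.6 rests on little cover between, 0.193% of that sequence. The ratio of replicate 2 was 9.20 with the 50% of peaks of higher fold, where 0.223% of the sequence between was covered. Windows of 5 kb turned its direction, with 1.16% of windows and 1.29% of the sequence between covered. The windows still had less cover than those of all genes under 3 kb, which stood at 22.4% and 6.48%.

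Part of the cover between the genes belonged to HFE, a regulator of iron uptake that lies inside the cluster of 32 genes. HFE had 3 peaks in replicate 1, with a fold of up to 3.74, and 2 in replicate 2, with a fold of up to 2.23, and met a shared region. Of the peaks of this cluster outside histone windows there were 7 in replicate 1 and 3 in replicate 2. Without windows of other protein-coding genes, the ratio was 6.43 in replicate 1 and 8.78 in replicate 2. The stretches of chromosome 6 between the clusters had a cover of 2.27%, 2.81% and 5.53% in replicate 1, in order of position, and of 0.375%, 0.584% and 2.26% in replicate 2. The last of these, between the clusters of 5 and 16 genes, thus had more cover than the others in each list.

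**Figure D3:**
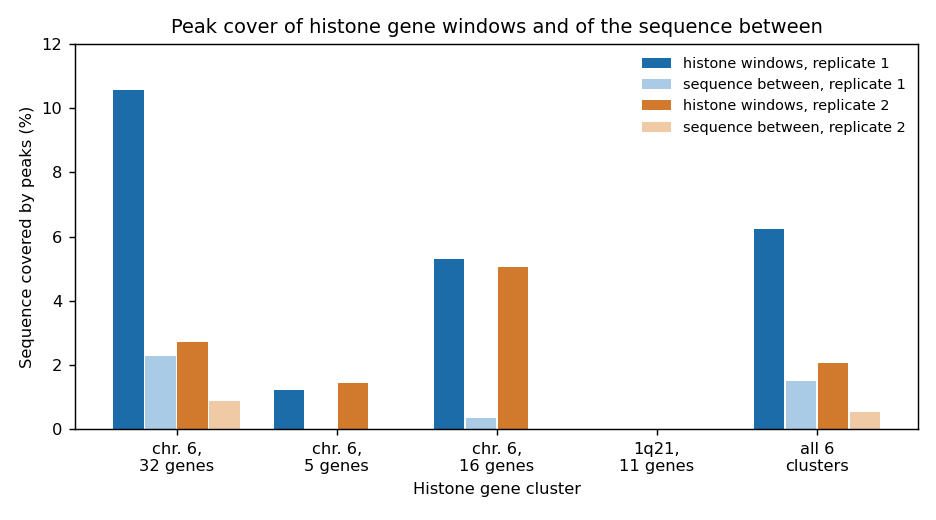
Share of sequence covered by peaks, in percent, in windows of histone genes (dark bars) and in the sequence between them (light bars), for each cluster with sequence between its genes and for all 6 clusters, in replicates 1 and 2. Dark bars stand above light ones wherever the cluster has a peak, and the 1q21 cluster has no bar.

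The 1q21 cluster had no peak in either replicate. Its 11 genes were H2BC18, H3C13, H4C14, H3C14, H2AC18, H4C15, H2AC19, H3C15, H2BC21, H2AC20 and H2AC21, over 105277 bp. The cluster lay in a stretch without peaks of 1.55 Mb in replicate 1 (chr1:148353678-149900210) and 1.54 Mb in replicate 2. That stretch held 14 other protein-coding genes, among them members of the NBPF and NOTCH2NL families, which are known as recent duplications. Peaks resumed 12245 bp beyond the last histone gene in replicate 1 and 11207 bp beyond it in replicate 2.

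Repeated sequence moved with the lack of peaks. At 7 of these 11 genes, at least 1 run of 50 bases of the promoter occurred again at another place in the promoter table (either strand), as at 6 of 14 genes of the cluster of 16 and at none in the other clusters. All 300 promoter bases of H4C14 are found again at H4C15, and H4C11 and H4C12 differ at 5 of 300 positions. None of the 13 histone genes with such a run had a peak in either list. Of the 50 without one, 22 (44%) had a peak in replicate 1 and 8 (16%) in replicate 2. Among genes under 3 kb in the table, peaks were present at 2.86% of 175 genes with such a run and at 57.7% of 1238 without one in replicate 1, and at 1.71% and 32.2% in replicate 2. The histone genes without a run thus also stood below the genes under 3 kb without one. On 1q21, the 4 genes without a run (H2BC18, H2BC21, H2AC20 and H2AC21) had no peak either. The search compared only the 300 promoter bases with the promoter table, so a gene without a run may still hold repeated sequence. The sources used here do not give how the authors treated reads that align to several places, and the part of repeats in these counts was not tested.

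Cover by peaks of replicate 1 was highest at the starts of histone genes, at a lower level than at other short genes. At the start itself 10 of 63 genes (15.9%) were covered, against 32.2% of 1356 other genes under 3 kb. A further rise stood 1500 bp before the start, where 8 of 63 histone genes (12.7%) were covered, against 14.7% of the other genes. Over positions 2 to 3 kb away the mean cover was 2.72% and 14.3%. In replicate 2 cover was not highest at the start: 1 of 63 starts (1.59%) was covered, against 7.01%, and cover 2 to 3 kb away was 3.17%, against 4.79%. These positions were counted from 1 start per gene. For H3C4 that was the start shared with H2AC7. The H3C4 start shown above, which lay under the peak of replicate 2, was not counted there. The promoter counts that follow take any start of a gene. Over the 300 promoter bases, 14 of 63 histone genes (22.2%) had a peak in replicate 1, against 54.8% of all protein-coding genes and 35.5% of those under 3 kb. In replicate 2 these were 2 of 63 (3.17%), H3C4 and H1-5, against 15.9% and 9.91%.

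**Figure D4:**
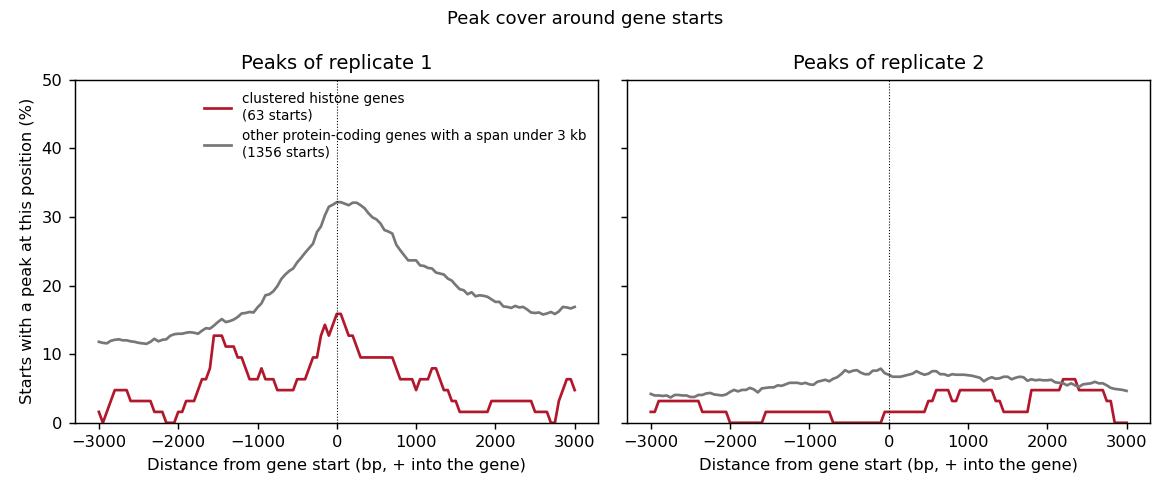
Share of gene starts with a peak at each position, in percent, from 3000 bp before to 3000 bp after the start, for 63 clustered histone genes and 1356 other protein-coding genes with a span under 3 kb, with 1 start per gene, in replicates 1 and 2. The histone curve of replicate 1 has its highest value at the start (15.9%), below the other genes (32.2%), and that of replicate 2 stands at 1.59% there.

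The peaks that were present at histone genes had ordinary values for their list in replicate 1, and folds above the list median in replicate 2. In replicate 1, 22 distinct peaks met the windows, with a median fold of 3.06 (range 2.81 to 3.73), against a list median of 3.14. Of these, 8 lay above the list median. Their median width was 564.5 bp, against 610 bp. In replicate 2, 5 distinct peaks met the windows, with a median fold of 2.53 (2.29 to 2.62), against 2.27, and all 5 lay above the list median. A −log10 q of 2 was reached by 8 of 22 and 3 of 5, against 40.3% and 30.9% of the lists. No peak at a histone gene exceeded 2.90.

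**Figure D5:**
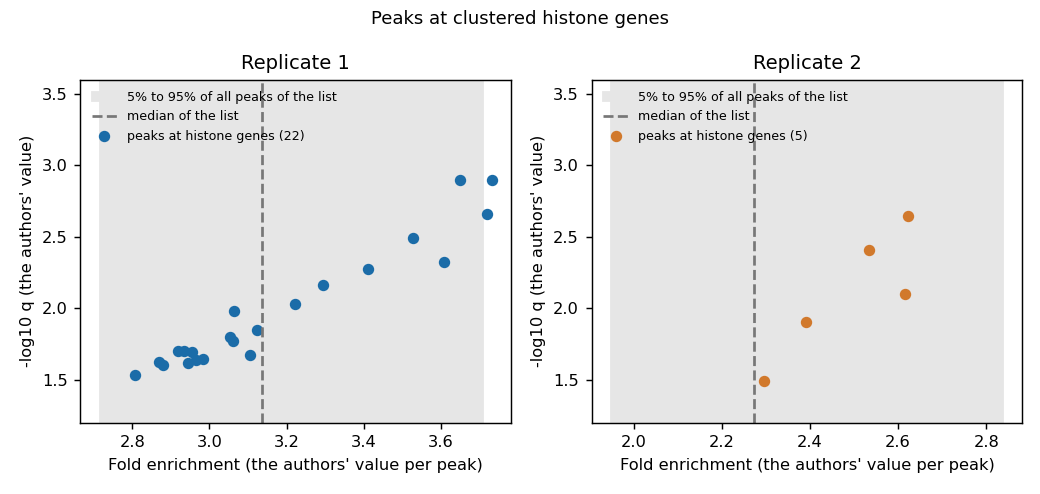
Fold enrichment and −log10 q of the distinct peaks at clustered histone genes (22 in replicate 1, 5 in replicate 2), both as the authors' caller gave them; the grey band spans the 5% to 95% points of all peaks of the list and the dashed line its median (3.14 and 2.27). Points of replicate 1 lie on both sides of the median, with 2 just past the upper edge of the band, and all points of replicate 2 lie above it.

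Histone genes outside the clusters, mostly encode variants made throughout the cell cycle. Of 15 such genes, 12 had a peak in replicate 1, 8 in replicate 2 and 7 a shared region, beside 79.2%, 64.1% and 50.9% of all protein-coding genes and 48.3%, 27.4% and 24.2% of those under 3 kb. Their counts are near or below the shares of all genes and above those of genes under 3 kb. The highest folds in replicate 2 were those of MACROH2A2 (2.69), H3-3A, an H3.3 gene (2.67), and H2BK1 (2.48), with 3.54, 3.10 and 3.89 in replicate 1. H3-3A met no shared region, so its peaks in the lists do not overlap. H4C16, an H4 gene on another chromosome, had a peak in replicate 1 only (2.99), and H2AZ2, H2BC12L and H3-5 had none. Their spans, with a median of 2652 bp, are longer than those of most clustered genes.

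Of 18 genes that act in the expression of clustered histone genes, 17 had a peak in replicate 1, 10 in replicate 2 and 8 a shared region. NPAT had 4 peaks in replicate 1 (fold up to 3.47) and none in replicate 2, and SLBP likewise had 4 (up to 4.17) and none. The octamer-binding factor gene POU2F1 had the highest fold in replicate 2 (3.12, with 3.33 in replicate 1), followed by YY1 (2.80 and 3.89) and CASP8AP2 (2.70 and 3.79), whose product FLASH takes part in histone mRNA processing. Each fold is the highest of any peak in the gene's window. POU2F1 and CASP8AP2 met no shared region, so their values in the lists come from peaks that do not overlap. Of 16 histone chaperone genes, 11 had a peak in replicate 1, 7 in replicate 2 and 7 a shared region. CHAF1A, the large subunit of the assembly factor CAF-1, led with 3.07 in replicate 2 and 4.14 in replicate 1, followed by HIRA, the H3.3 chaperone (2.69 and 3.79), and UBN1 (2.50 and 3.57). These genes are long, with median spans of 21951 bp and 34887 bp. The shares of all protein-coding genes (79.2% in replicate 1, 64.1% in replicate 2 and 50.9% with a shared region) are their background. In replicate 2 and for shared regions both sets stood below that background. In replicate 1 the genes of histone expression stood above it and the chaperone genes below it.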

How the data were processed

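Each ChIP replicate came as 1 deposited list of broad peaks, called for each replicate per the series' design text. The submitters' processing notes name Bowtie2 2.2.9 and MACS2 2.1.1, and the build hg38, without their roles. The sources used here do not give thresholds. Per the layout of the deposited broad peak files, column 5 is a score, column 7 the fold enrichment (a ratio), and columns 8 and 9 the −log10 p-value and −log10 q-value of each peak, all by the authors. Reads were not used, so depth is unknown, and no file of the 2 inputs was used. The word Merge stands in peak names of replicate 2, and what was merged is not stated.

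Gene spans were those of RefSeq (GRCh38.p14), and strands, starts and promoter sequences were those of a RefSeq promoter table that held 63 of the 68 genes. Overlaps and cover were computed with Python 3.11.15, numpy 2.4.6 and pandas 2.3.3, with interval code tested on simulated data. No test was made: each list is 1 sample, and the 2 lists are the only replicates. Named were genes with a peak of replicate 2 or a shared region, the 5 with the highest −log10 q in replicate 1, the most and least covered of each cluster, members of clusters of 3 genes or fewer and, per list, the 3 highest folds of replicate 2; other genes named were chosen with their values seen. Genes, lists and alternatives were chosen with earlier results of these data known. The alternatives were other windows, stricter peaks, other overlaps, other cluster gaps and each replicate alone.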

Additional observations from a re-analysis of the deposited data

How the results depend on the processing

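Of 99 comparisons with an alternative setting, 46 stayed near the value reported (counts within 1.5 times, ratios within the SD between replicates), 52 moved and 1 turned. The cause was not tested. Histone genes with a peak in replicate 1 (23) numbered 38 with windows of 5 kb, 11 at a stricter q (−log10 q of 2 or more), 11 with the 50% of peaks of higher fold and 12 with equal numbers of peaks. Those of replicate 2 (8) numbered 5 over the span alone, 13 with 5 kb and 5 at the stricter q. Those with a shared region (6) numbered 10, 1 and 3 with 5 kb, the stricter q and the higher fold, 3 with equal numbers and 2 with a reciprocal overlap of 50%. Leaving out a replicate gave from 8 to 23 (8 without replicate 1, 23 without replicate 2). These only repeat the counts of the remaining list, since a shared region needs both lists, yet they are among the 99 comparisons. HFE, 1 of 3 other genes inside the clusters, was lost in replicate 2 and among shared regions with the stricter q or the higher fold (0 genes each). Background shares were counted only for windows of 1 kb, spans alone and promoters.

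The log2 ratio of cover in windows to cover between was 2.05 in replicate 1. It was 0.98 for spans alone, 1.90 with 500 bp, 0.94 with 5 kb, 1.86 with the stricter q, 1.86 with the higher fold, 1.72 with cluster gaps of 500 kb and 2.68 without other genes' windows. Added after seeing the data, it was 2.33 without the 1q21 cluster and 3.76 without the cluster of 32 genes, the last with 0.193% of the sequence between covered. In replicate 2 it was 1.92, and 2.02, 2.40 and −0.15 with spans alone, 500 bp and 5 kb, the last a change of direction. It was 3.20 with the higher fold, 2.16 with gaps of 500 kb, 3.13 without other genes' windows and 2.19 without 1q21. With the stricter q, or without the cluster of 32 genes, replicate 2 had no cover between and gave no ratio.

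With windows of 5 kb, genes with a peak in replicate 1 numbered 9 for H2A, 11 for H2B and 5 for H4. In replicate 2 they were 4 for H2A, 5 for H2B and 2 for H3, and with a shared region 4 for H2A and 2 for H3. With the stricter q, replicate 1 had 3 H1, 1 H2A, 4 H2B, 3 H3 and 0 H4 genes in 2 clusters, against 5 clusters as reported. Replicate 2 had 1 H2A and 1 H2B gene, and shared regions met 0 H1, 0 H2A and 0 H2B genes, in 1 cluster against 2. No paired analysis was possible because each replicate number has 1 peak list and the inputs have no list of their own here. Without reads, a gene without a peak cannot be told from one below the caller's threshold.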

Other observations

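Histone pseudogenes lie among the functional copies and do not encode functional histones. Of 14 in the same stretches of chromosomes 1 and 6, 6 had a peak of replicate 1 within 1 kb, beside 48.3% of protein-coding genes under 3 kb. In replicate 2 it was 1, H1-12P, beside 27.4%, and it also met a shared region. The highest fold was 3.94 in replicate 1, at H3C9P, which lies beyond the last gene of the cluster of 32 genes and had no peak in replicate 2. H2AC3P, outside the clusters, had 3.50. H2AC5P had 2 peaks (fold up to 3.41), both of which also counted for H3C3. At H2AC9P (3.29) and H2AC10P (3.06) the peaks were those of H1-3 and H3C8.

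All 33 clustered histone genes of chromosome 6 without a peak in replicate 1 lay 1117 bp to 22407 bp from the nearest one (median 6313 bp). In replicate 2 there were 47 such genes, at 1282 bp to 73066 bp (median 25018 bp).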
